A study of Mus musculus with 3 samples.

Results

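Of the 18945 CTCF peaks in the deposited list of a single library of LSK cells, 747 lay in gene deserts (3.94%, 95% interval 3.68% to 4.23%). LSK cells are bone marrow cells that lack lineage markers and carry Sca1 and cKit, and they include the hematopoietic stem cells. Here they were sorted from adult C57BL6 mice, which were male by the study's methods. Sorting was by the absence of CD4, CD8, IL7Ra, CD11b, Ly6g, CD45R and Ter119. The cells were not further treated as far as the labels say. CTCF was precipitated with 1 antibody, and each peak carries the authors' fold enrichment and −log10 p-value. A desert peak had its midpoint outside every gene record of GENCODE M21, and no transcription start site (TSS, the 5′ base of a gene record, whatever its type) within 50 kb of its edges. Neither the fold enrichment nor any sequence feature was used to choose these peaks. With 1 library there is no replicate, so intervals cover counting error only, no test between conditions was possible, and the read depth is not in the list.

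CTCF is a zinc finger protein that binds a long, asymmetric DNA motif through its array of fingers. Where cohesin, extruding a chromatin loop, meets CTCF bound in the facing orientation, the loop is held, and many boundaries of chromatin domains are pairs of such sites. Gene deserts are long stretches without genes. Many of them flank genes of development, whose distant enhancers they can hold, while others hold few known elements.

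The desert peaks with the highest fold enrichment carried the CTCF core motif or a copy of it with 1 mismatch. So did 83.3% of all desert peaks and 83.6% of the other peaks. The core motif is a run of 12 bases that was searched on both strands. Its sites in the 6 strongest desert peaks are shown with 20 bases to either side, to let their shared core be compared with their unlike flanks. Capitals mark the core, read in the motif's own 5′ to 3′ direction from GRCm38.p6 (the assembly of mm10), and all of the sites are intergenic by GENCODE M21. By RefSeq the midpoints of the peaks beside Zfp644 and Edn3 lie in a gene. The site lay within 15 bp of the peak's midpoint in 5 of the peaks, and 354 bp from it in the wide peak beside Zfp644. Each is named by the protein-coding genes on either side.
Btg1 and Dcn (chr10:97340045-97340096, minus strand, 1 mismatch): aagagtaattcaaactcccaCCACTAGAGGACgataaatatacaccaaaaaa
Eya2 and Zmynd8 (chr2:165782493-165782544, plus strand): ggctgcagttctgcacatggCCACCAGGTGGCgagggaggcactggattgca
Zfp706 and Grhl2 (chr15:37120605-37120656, plus strand, 1 mismatch): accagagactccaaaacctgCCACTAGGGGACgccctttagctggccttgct
Ccdc50 and Fgf12 (chr16:27457460-27457511, minus strand): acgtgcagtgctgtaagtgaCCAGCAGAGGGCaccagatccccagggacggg
Zfp644 and Hfm1 (chr5:106803273-106803324, plus strand): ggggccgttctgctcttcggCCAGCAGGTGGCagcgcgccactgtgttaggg
Edn3 and Gm14444 (chr2:174932841-174932892, minus strand): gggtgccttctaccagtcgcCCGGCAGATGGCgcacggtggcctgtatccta

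The strongest of these peaks, with a fold enrichment of 27.08, lay 139146 bp from the record of Dcn, which encodes the matrix proteoglycan decorin, and 83016 bp from the nearest TSS. The second, at 26.76, was a desert peak by TSS distance but lay only 1193 bp from the record of Zmynd8, which encodes a chromatin reader. The third, at 25.12, was 112432 bp from the record of Zfp706 and 112010 bp from that of Grhl2, a transcription factor of epithelia. The peaks beside Fgf12 and Zfp644 both had 23.17, and the latter held 2 core sites. The peak beside Edn3, which encodes a peptide of the endothelin family, had 22.84. The remaining peaks among the 10 strongest ran from 21.54 to 22.51 and lay beside Fshr and Lhcgr (the gonadotropin receptors), Olfr275 (an olfactory receptor), Lmx1b (a LIM homeobox factor), and Edn2 and Foxo6. Of the 10, 5 held the core motif without a mismatch and the other 5 with 1 mismatch. In 3 of them the midpoint lay in a gene of the RefSeq annotation.

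The deserts are defined by TSS distance, so they are not all far from genes. The nearest record of any gene was at a median of 56.0 kb from a desert peak, and was within 10 kb of 75 peaks (10%). By the rule, such a record had its TSS at the far side. The nearest TSS was at a median of 72.9 kb. It belonged to a protein-coding gene for 235 peaks (31.5%), a processed pseudogene for 188 and a lincRNA for 155. Only 176 peaks (23.6%) were more than 100 kb from a TSS, and 31 more than 200 kb. The most remote, on Chromosome 1 between Kcnt2 and Cdc73, was 415282 bp from a TSS and had a fold enrichment of 14.03. On Chromosome 14, a peak between the protocadherin genes Pcdh20 and Pcdh9 was 345714 bp away, with 6.20. At the limit itself, the nearest members were 50011, 50029 and 50036 bp from a TSS (fold enrichment 7.18, 13.38 and 15.99), and the nearest peaks outside it 49993, 49983 and 49975 bp (14.36, 10.12 and 7.18). By RefSeq records, 423 of the 747 (56.6%) would also be desert peaks.

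CTCF peaks were sparse in deserts. Desert bases made up 415 Mb, or 16.2%, of the known bases, and 758 peaks had their midpoint on them. That is 1.83 peaks per Mb (1.70 to 1.96), against 8.48 per Mb (8.36 to 8.60) over all other bases, or 21.6% of that density (20% to 23.2%). The core motif was also sparser, with 4.31 sites per Mb (4.11 to 4.52) in deserts and 9.86 (9.73 to 10) elsewhere. Of 1788 desert sites 290 lay in a peak, an occupancy of 16.2% (14.6% to 18%), against 31.5% (30.8% to 32.1%) of sites on other bases. In gene records over 50 kb from a TSS the occupancy was 21.8% (20.1% to 23.7%) of 2013 sites. Fewer motif sites and a lower occupancy of those sites were thus both measured, and against all other bases neither interval overlapped its counterpart.

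The limit of 50 kb marked no step in these values. Outside gene records, density fell from 12.2 peaks per Mb within 10 kb of a TSS to 4.47 at 25 to 50 kb. It was 2.52 at 50 to 100 kb, 1.04 at 100 to 200 kb and 0.706 (0.483 to 0.996) at 200 to 500 kb. Occupancy of core sites fell from 38.7% within 10 kb to 24.0% at 25 to 50 kb, and was 19%, 11% and 10.6% in the 3 classes beyond. In gene records the same distances gave a slower fall, from 11.9 to 1.99 peaks per Mb. At 100 to 200 kb from a TSS the density was 3.04 in genes against 1.04 outside them. Occupancy in genes was 24.5% at 50 to 100 kb, 17.6% at 100 to 200 kb and 11.1% (7.14% to 16.9%) at 200 to 500 kb. GC content fell as well, from 42.2% of intergenic bases within 10 kb to 38.0% at 200 to 500 kb.

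**Figure D1:**
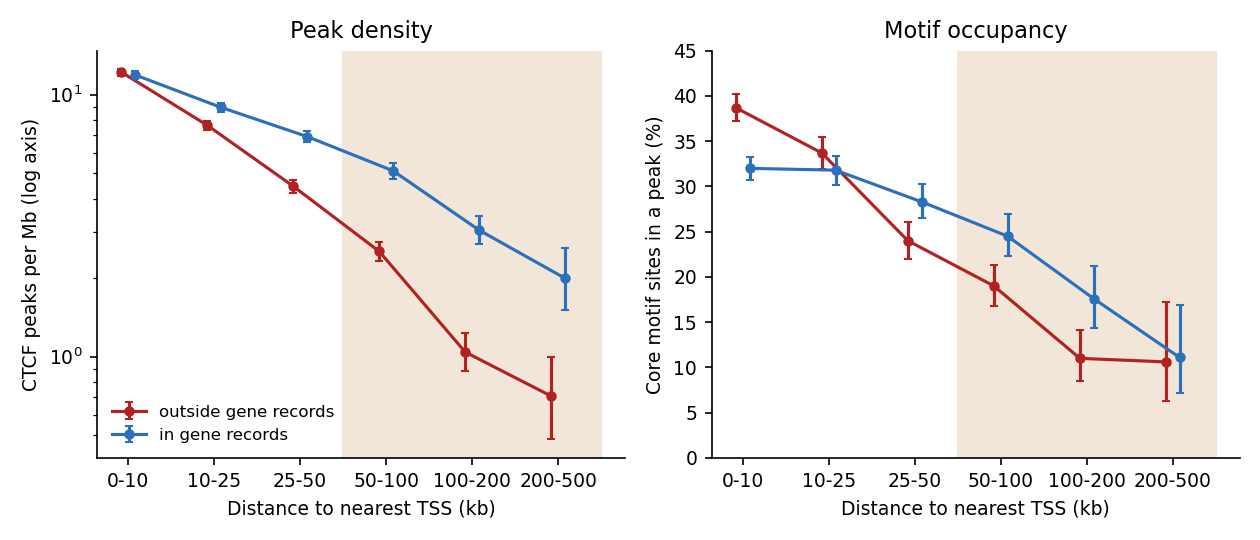
CTCF peaks per Mb with exact 95% Poisson intervals (left, log axis) and the share of core motif sites in a peak with 95% Wilson intervals (right), by distance to the nearest TSS in kb, for bases outside gene records (red) and in them (blue). Shading marks distances over 50 kb, where the red points are the desert bases. Peak density falls from 12.2 to 0.706 per Mb outside genes.

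Deserts are poor in G and C, and CTCF peaks were most frequent in GC-rich sequence, so densities were also compared among 10 kb windows of like GC content. Deserts held 31.8% of the bases in the GC-poorest 5th of the genome and 4.04% of those in the GC-richest. In the GC-poorest class there were 0.349 peaks per Mb (0.265 to 0.453) in deserts and 1.03 elsewhere. In the middle class there were 2.04 (1.73 to 2.39) and 4.67, and in the GC-richest 11 (9.63 to 12.5) and 21.6. With the density of other bases in each class, deserts would hold 1604 peaks where 757 were found, or 47.2%. Motif occupancy was also lower in deserts in each class, from 5.33% against 11.8% in the GC-poorest to 24.3% against 38.2% in the GC-richest. With GC class and repeat masking both held, 421 desert sites would lie in a peak where 290 did (68.9%). Whether the mappability of desert bases plays a part was not tested.

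**Figure D2:**
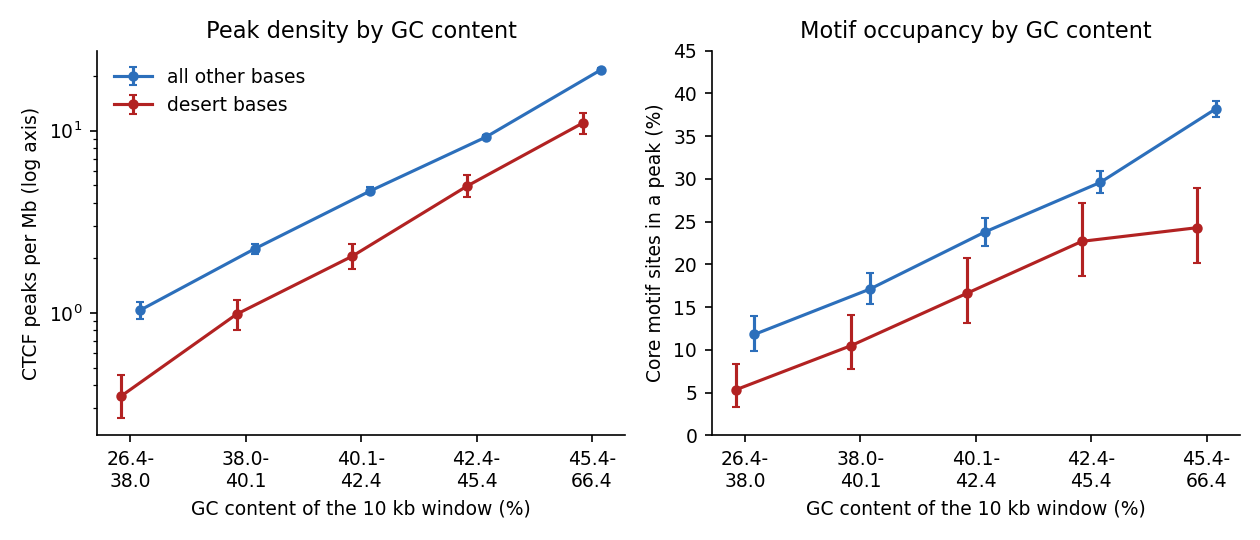
CTCF peaks per Mb with exact 95% Poisson intervals (left, log axis) and the share of core motif sites in a peak with 95% Wilson intervals (right), in 5 classes of 10 kb windows by GC content, for desert bases (red) and all other bases (blue). Desert bases are lower in each class, with 11 against 21.6 peaks per Mb in the GC-richest.

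Not every form of the core was occupied to the same degree in deserts. The core motif allows several letters at some positions, and 61 different words of 12 bases were found at the 1396 desert sites that lay outside masked repeats. Desert sites of the most and the least occupied of the 10 commonest words are shown, each once in a peak and once where the nearest peak was more than 2 Mb away, because the same core was found in both states. Capitals mark the core.
Most occupied word, in a peak of fold enrichment 19.25 (chr3:31603403-31603454, minus strand): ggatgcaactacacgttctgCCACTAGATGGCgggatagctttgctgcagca
Most occupied word, not in a peak (chr1:102710608-102710659, minus strand): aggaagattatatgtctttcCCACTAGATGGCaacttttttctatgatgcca
Least occupied word, in a peak of fold enrichment 15.34 (chr5:134006929-134006980, minus strand): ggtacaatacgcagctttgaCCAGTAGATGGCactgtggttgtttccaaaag
Least occupied word, not in a peak (chr1:115533912-115533963, plus strand): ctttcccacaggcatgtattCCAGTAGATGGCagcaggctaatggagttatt

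The most occupied word lay in a peak at 33 of its 58 desert sites, or 56.9% (44.1% to 68.8%), and at 56.6% (52.5% to 60.5%) of its 585 sites elsewhere. The least occupied word differs from it by C4G, counted from 1 at the 5′ end of the core. It lay in a peak at 3 of 60 desert sites, or 5.0% (1.71% to 13.7%), against 21.9% (18.2% to 26.1%) of its sites elsewhere. Both words were picked by their desert occupancy, as the highest and the lowest of 10. The gap of each to its share elsewhere therefore depends in part on that choice. Over all words, desert sites with the first base of C4G were in a peak in 25.8% of cases (22.6% to 29.4%) and those with the second in 13.7% (11.5% to 16.3%). Elsewhere the shares were 41.8% and 26.7%. Among the 29 words with at least 20 desert sites, 26 had a lower occupancy in deserts than elsewhere. Across these words, desert and other occupancies had a Spearman's rho of 0.92, which is a description of sites in 1 library that share letters with each other. With the occupancy each word had elsewhere, 435 of the unmasked desert sites would lie in a peak and 268 did (61.6%).

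**Figure D3:**
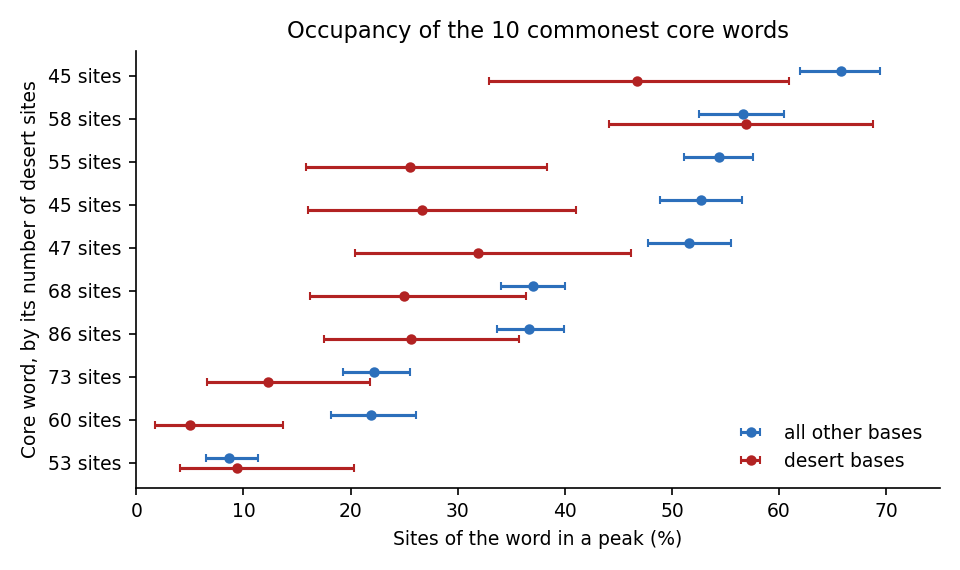
Share of sites in a peak (x axis, percent, with 95% Wilson intervals) for the 10 commonest core words at unmasked desert sites, each named by its number of desert sites, on desert bases (red) and all other bases (blue). In 8 of the 10 the desert share is the lower one. For the word with 58 desert sites, which has the highest desert share of the 10, it is 56.9% against 56.6%.

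Core sites within masked repeats were seldom occupied in deserts. Of 392 masked desert sites 22 lay in a peak (5.61%, 3.74% to 8.35%), against 15.4% (14.2% to 16.7%) of masked sites elsewhere. Outside repeats the shares were 19.2% (17.2% to 21.3%) and 34.2% (33.5% to 34.9%). For sites in genes over 50 kb from a TSS they were 12.5% (8.96% to 17.0%) in repeats and 23.2% (21.3% to 25.2%) outside them.

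The peaks that did form in deserts were close to other CTCF peaks in strength and width, and lay farther apart. Their median fold enrichment was 9.46 (9.14 to 9.79), with a range of 2.94 to 27.08, and it was 10.12 over all other peaks. It was 10.44 in intergenic peaks with a TSS within 50 kb and in peaks within 1 kb of a TSS, and 9.79 (9.46 to 9.79) in peaks in genes with no TSS within 50 kb. Desert peaks held more of the weak values, with 16.7% (14.2% to 19.6%) among the lowest 10% of fold enrichments, where other peaks had 11.2%. Their median width was 708 bp, against 715 bp. Their GC content was 43.6%, against 47.2%. The nearest other peak was at a median of 43.9 kb (37.6 to 49.9 kb), against 18.4 kb, and was over 100 kb away for 30% of them, against 10.7%. The peaks in genes with no TSS within 50 kb lay between these values, with 12.2% among the lowest fold enrichments, a GC content of 44.6%, a nearest peak at a median of 37.2 kb (33.9 to 41.3 kb) and 22.4% of nearest peaks over 100 kb away. The interval of this median overlapped that of the desert peaks.

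**Figure D4:**
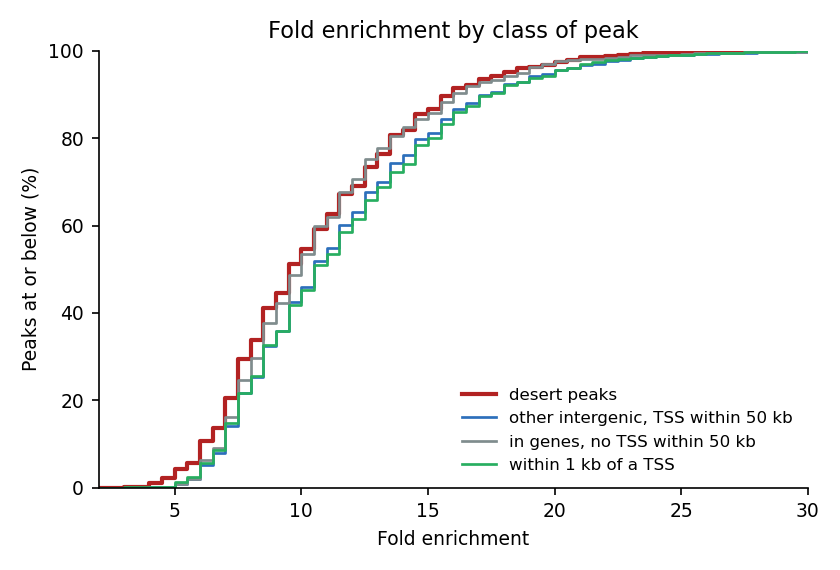
Share of peaks (y axis, percent) at or below each fold enrichment (x axis, shown up to 30) in desert peaks and 3 other classes of peak. The curve of the desert peaks lies close to that of peaks in genes with no TSS within 50 kb, with medians of 9.46 and 9.79, and to the left of the other classes.

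The core motif was present without a mismatch in 282 desert peaks, or 37.8% (34.3% to 41.3%), and in 35.5% (34.8% to 36.2%) of all other peaks. In equally wide windows shifted by 10 kb to the left and right of the desert peaks it was present in 0.268% and 0.535%. With 1 mismatch allowed, 83.3% of the desert peaks and 83.6% of the others held it, against 12.2% and 10% of those windows. In the 279 desert peaks with a single core site, its median distance to the peak midpoint was 31 bp. Desert peaks with fold enrichments up to 7.83 held the core motif in 28.5% of cases (23.3% to 34.4%), and those above 13.38 in 49.3% (41.3% to 57.4%). In the other peaks the same groups had 27.2% and 43.0%.

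One word with 1 mismatch recurred in repeats. Among the 340 desert peaks that held a site only with 1 mismatch, the commonest word at the site nearest the midpoint was found in 25 peaks, and all 25 sites were masked as repeats. It made up 7.35% (5.03% to 10.6%) of these desert peaks, against 13.0% (12.3% to 13.7%) of the 8751 other peaks of that kind. In rodents the B2 family of short interspersed repeats is known to carry CTCF sites, but the masking used here names no family. The peaks with this word had a median fold enrichment of 7.50 in deserts.

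That word and others can be seen in the desert between Syf2, which encodes a splicing factor, and Runx3, a transcription factor of lymphocytes and neurons. It was 89.5 kb long, on Chromosome 4 from 134980899 to 135070446, and held 6 peaks. The site of each peak is shown in order along the chromosome, with its core in capitals, because only the last has no mismatch.
Peak 1, fold enrichment 7.83 (chr4:134984735-134984786, plus strand): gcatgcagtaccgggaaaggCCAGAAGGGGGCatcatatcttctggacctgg
Peak 2, 11.42 (chr4:135018218-135018269, plus strand): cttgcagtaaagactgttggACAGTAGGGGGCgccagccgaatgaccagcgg
Peak 3, 5.87 (chr4:135023374-135023425, minus strand): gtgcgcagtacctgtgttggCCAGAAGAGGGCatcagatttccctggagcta
Peak 4, 12.07 (chr4:135034574-135034625, minus strand): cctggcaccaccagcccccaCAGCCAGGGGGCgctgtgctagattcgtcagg
Peak 5, 6.53 (chr4:135039400-135039451, plus strand): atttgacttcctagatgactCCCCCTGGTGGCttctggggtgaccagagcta
Peak 6, 14.36 (chr4:135066900-135066951, plus strand): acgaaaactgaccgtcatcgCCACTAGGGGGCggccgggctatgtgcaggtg

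Peak 3 holds the word that recurred in repeats, and 59.2% of its bases were masked, as were 68.2% of those of peak 1. Peak 6 was the nearest of them to Runx3, 52.9 kb from its record. On the other side of Runx3 a further desert peak, 28.1 kb from its record, had a fold enrichment of 14.03.

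Peaks were spread unevenly over the deserts. There were 4236 unbroken stretches of desert bases, of which 530 held a peak: 396 held 1, 90 held 2 and 44 held 3 or more. Stretches with no peak made up 82.8% of the desert bases. Density fell with length, from 4.79 peaks per Mb (4.14 to 5.52) in stretches under 50 kb to 0.572 (0.374 to 0.838) in those of 500 kb or more, though 26.9% of the 67 longest held a peak and 8.10% of the shortest. TSS distance and GC content were not held equal here, so this fall is not separate from the fall with distance given above. The desert between the cadherin genes Cdh26 and Cdh4 on Chromosome 2 (484 kb) held 7 peaks with fold enrichments from 7.18 to 15.66, and 4 of its 10 core sites lay in a peak. Between Camk1g, a calmodulin-dependent kinase, and Plxna2, a semaphorin receptor, 6 peaks had 5.87 to 18.60, and 1 of 2 core sites lay in a peak. Between Gadd45g, a stress response gene, and Diras2, a small GTPase, 6 peaks also started at 5.87, and reached 13.38. The longest desert with a peak was that between Bmp2, a bone morphogenetic protein, and Hao1, an enzyme of glycolate oxidation (863 kb), whose only peak had 12.07. The next were between Gm10800 and B230118H07Rik (843 kb, 1 peak of 17.95) and between Man1a and Tbc1d32 (839.9 kb, 1 peak of 9.79). The 3 longest deserts of all held none. They were the stretches between Dsel and Cntnap5a (1156 kb, with no core site), Ankrd7 and Kcnd2 (1083 kb, 1 core site), and Cobl and Pom121l12 (1024 kb, 1 core site).

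The desert with the most peaks was of another kind. Between Zxdb, a zinc finger gene, and Spin4 on Chromosome X, 15 peaks lay within 50.7 kb, from 94865436 to 94916129. The first had a fold enrichment of 9.79, a core motif and almost no repeated sequence, with 0.369% of its 31-base words present more than once in the genome. In each of the other 14, more than 90% of such words were repeated and more than 80% of the bases were masked. Their fold enrichments ran from 2.94 to 6.53, and none held the core motif, even with 1 mismatch. A stretch of 60 bases, shown here as read on the plus strand because 13 of the 15 peaks share it on either strand, occurred 24 times on Chromosome X.
Shared stretch (chrX:94878577-94878636): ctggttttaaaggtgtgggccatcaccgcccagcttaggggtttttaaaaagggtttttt

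The authors kept reads that map to several places, and which reads these were is not in the list, so their part in these 14 peaks was not tested. Over all desert peaks, 37 (4.95%, 3.61% to 6.75%) were made up mostly of repeated words, against 2.85% (2.61% to 3.10%) of other peaks. In other intergenic peaks, with a TSS within 50 kb, the share was 3.81% (3.41% to 4.25%), and this interval overlapped that of the desert peaks. In genes with no TSS within 50 kb it was 0.521% (0.239% to 1.13%). Of the 37 desert peaks, 22 lay on Chromosome X. The median fold enrichment of the 37 was 4.57, and 1 of them held the core motif. Chromosome X had 38 desert peaks among its 248 peaks (15.3%, 11.4% to 20.3%), and the share was from 1.81% to 7.53% on the autosomes. Its deserts held 1.13 peaks per Mb (0.799 to 1.55), inside the autosomal range of 0.718 to 2.68. Its other bases held 1.62, below the autosomal range of 6.54 to 14. The desert density includes the 15 peaks between Zxdb and Spin4 and was not computed without them. Its place in the autosomal range may therefore depend on that single desert. The mice were male, and whether the copy number of Chromosome X plays a part in its values was not tested. Without the desert of Zxdb and Spin4 there were 23 desert peaks on Chromosome X, with a median fold enrichment of 6.53. More than 50% of the bases were masked in 7.23% (5.58% to 9.31%) of all desert peaks and 6.15% (5.81% to 6.51%) of other peaks, with overlapping intervals. More than 80% were masked in 2.81% (1.85% to 4.26%) of desert peaks, against 0.588% of other peaks. Of those 21 desert peaks, 14 were in that single desert. The desert density was 21.1% of that elsewhere without it, against 21.6% with it.

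**Figure D5:**
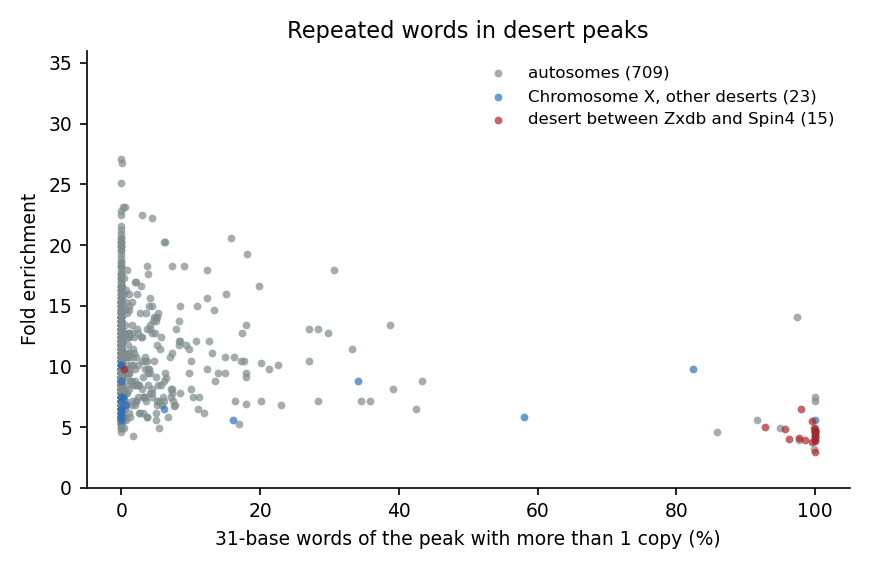
Fold enrichment (y axis) of each of the 747 desert peaks against the share of its 31-base words with more than 1 copy in the genome (x axis, percent), for autosomes (grey), the desert between Zxdb and Spin4 (red) and other deserts of Chromosome X (blue). Of the 15 red points 14 lie above 90%, with fold enrichments from 2.94 to 6.53.

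The genes beside desert peaks were counted in 4 gene lists. A gene was counted when it was the nearest protein-coding gene on either side of a desert peak, whatever the distance. A peak beside a listed gene can thus lie closer to the gene on its other side. Genes counted in this way were 947 of 21728 protein-coding genes (4.36%) and 32 of 81 developmental transcription factors (39.5%). They were also 15 of 60 blood transcription factors (25%), 11 of 40 receptors and ligands of stem cells (27.5%) and 26 of 68 neuronal adhesion genes (38.2%). Many genes of these lists border a desert in the first place. Among the genes that do so, with or without a peak, 26.5% (25.1% to 28.0%) of all 3571 had a desert peak beside them. In the same terms it was 50.8% (38.8% to 62.7%) of 63 developmental factors, 51.7% (34.4% to 68.6%) of 29 blood factors, 57.9% (36.3% to 76.9%) of 19 receptors and ligands and 42.6% (31% to 55.1%) of 61 adhesion genes. The lengths of the bordering deserts were not held equal, and the lists were not tested.

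Among the blood transcription factors, Runx3 had 7 desert peaks beside it, with fold enrichments from 5.87 to 14.36. Hlf, which marks hematopoietic stem cells, had 2, at 18.5 and 29.1 kb from its record, with 14.68 and 9.14. Erg, an ETS factor needed by these stem cells, had 1 at 61.2 kb, with 11.75. Ebf1, a factor of B cells, had 2, with 14.36 and 5.87, of which the nearer overlapped the edge of its record. The 2 peaks beside Satb1, a chromatin organizer, had 9.46 and 5.55 at 349 to 447 kb. The 2 beside Zeb2 were 2668 and 2884 kb from it, with 7.18 and 7.50, and lay closer to Acvr2a on their other side, at 1027881 and 811787 bp. Distances thus ran from the edge of the gene to several Mb within this list.

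Of the receptors and ligands, S1pr1, a receptor that guides lymphocytes out of tissues, had 3 desert peaks of like strength, 15.99, 17.62 and 15.99, between 48.8 and 113 kb from its record. Itgb1, an integrin subunit of cell adhesion, had 2, of 8.63 and 19.58, and the stronger was at 134 kb. Both lay closer to Nrp1 on their other side, at 15792 and 47909 bp. Tgfbr2, a receptor of TGF beta, had 3, from 8.15 to 9.79. Angpt1 and Bmp2, both ligands, had 2 each, with 9.46 and 12.73 and with 12.07 and 13.05. The peak of 12.07 was 918723 bp from Bmp2 and 15090 bp from Hao1 on its other side. Cd44, a receptor for hyaluronan, had 1 at 6.56 kb, with 9.46.

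Among the developmental factors, Sox9, which directs cartilage and testis formation, had 6 at 572 to 1336 kb from its record, all between 5.55 and 9.46. All but the nearest of these lay closer to Kcnj2, on their other side, at 368864 to 460602 bp. Isl1, a factor of heart and motor neurons, had 3, of 12.07, 20.23 and 4.57, the nearest at 408 kb. Tbx3, a T-box factor of limb and heart, had 3, of 8.16, 18.93 and 7.50, and only that of 7.50 was near, at 62.1 kb. The peaks of 8.16 and 18.93 were 896243 and 888590 bp from Tbx3, and lay 8294 and 15930 bp from Med13l on their other side. The 3 beside Nr2f2, an orphan nuclear receptor, had 10.44 to 17.62 at 1517 to 1528 kb, and lay 73778 to 84993 bp from Arrdc4 on their other side. The 2 beside Hand2 had 7.18 and 15.99 at 704 to 705 kb, and lay 21003 and 22072 bp from Fbxo8. The 2 beside Id4 had 9.46 and 11.09 at 684 to 972 kb. In the adhesion list, Cdh4 had the 7 peaks described above, at 556 to 934 kb from its record. Dcc and Flrt2 had 4 each, at 41.4 to 832 kb and at 2142 to 3388 kb. Cdh19, Epha7 and Lsamp had 3 each, at 683 to 715 kb, 334 to 2819 kb and 921 to 935 kb. The peaks of 5.55 and 3.93 beside Cdh19 had 91.7% and 97.7% of their 31-base words repeated. Neither held the core motif, even with 1 mismatch, and they lay 32151 and 32885 bp from Cdh7. Of these adhesion genes Cdh4 had the highest value, 15.66, and the others reached 9.79 to 10.44.

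The orientation of neighbouring core motifs rests on few desert pairs. There were 31 pairs of neighbouring peaks in the same desert with a single core site each. Of these 3 were convergent, with the motifs pointing toward each other (9.68%, 3.35% to 24.9%), 18 tandem and 10 divergent. Among the 2204 pairs of the other peaks 26.3% (24.5% to 28.2%) were convergent, and the intervals overlapped. Pairs within a desert cannot be longer than the desert. At distances up to 100 kb the shares were 10.3% (3.58% to 26.4%) of 29 and 22.6% (20.6% to 24.7%) of 1655, and these intervals overlapped too. With 1 mismatch allowed, 12 of 103 desert pairs were convergent (11.7%, 6.79% to 19.3%). The same share was not computed for the other peaks, so this value has no counterpart and cannot be set beside those above.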

How the data were processed

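CTCF ChIP-seq of LSK cells was analysed from the deposited peak list of 1 library. Per the study's methods, the authors mapped reads to mm10 with Bowtie 0.12.8, kept reads that map to several places, converted them with Samtools 0.1.8 and found peaks with MACS 1.3.7.1. The submitters' processing notes name bcl2fastq and Bowtie 1.0.0 instead. No source used here gives the settings or the control of MACS. The deposited fold enrichment is a linear ratio, and their −log10 p-value served to rank peaks. The deposited false discovery rate, whose scale is not given, was not used. Read depth is unknown. Inputs from LSK and MEP cells were not analysed here.

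Everything else was computed in Python 3.11.15 (numpy 2.4.6, scipy 1.17.1, pandas 2.3.3, numba 0.67.0, matplotlib 3.10.9). Starts in the list were taken as counted from 0 and are printed as counted from 1. The sequence, soft-masked repeats and RefSeq genes came from GRCm38.p6. Unknown bases were left out. Words of 31 bases were counted over Chromosomes 1 to 19, X and Y. Shares carry 95% Wilson intervals, densities exact Poisson intervals and medians intervals from order statistics, for counting error only. On simulated data, 1000 of 1000 planted motifs were found, and 3000 of 3000 distances equalled a direct count.

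The members, gene lists and tests were chosen with earlier results of these data known, and the lists were written from general knowledge. Genes named are the nearest protein-coding gene on either side of the 10 strongest desert peaks, of the 5 deserts with the most peaks and of the 3 longest deserts with and without peaks, and in each list up to 6 genes by number of desert peaks beside them. The genes beside the most remote peaks were added after their values were seen, as were the core words and the recurring word in repeats. Alternatives were other TSS distances, gene records, transcript starts, merged peaks, the upper 50% of peaks by −log10 p-value, mismatches, repeat limits and chromosomes. Chosen after seeing the data were RefSeq genes, classes of GC content, and leaving out repeated words or the desert with the most peaks.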

Additional observations from a re-analysis of the deposited data

How the results depend on the processing

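The number of desert peaks rests on the distance and the annotation. It was 1906 at 25 kb, 176 at 100 kb, 2674 for protein-coding genes alone and 338 in the upper 50% of peaks by −log10 p-value. It stayed between 641 and 745 with every transcript start, whole peaks outside genes, merged peaks and, chosen after seeing the data, RefSeq genes or without repeated words or the desert with the most peaks. By RefSeq genes the total was like but the members were not, since 423 of those 659 peaks were among the 747. Relative to other bases, desert density was 31.6% at 25 kb, 12.1% at 100 kb, 25.2% for protein-coding genes, 19.4% in the upper 50% of peaks and 47.2% with GC classes held equal. The core motif share came to 83.3% at 1 mismatch, 34.0% within the central 200 bp and 43.8% in the upper 50%. Motif occupancy was 19.2% in deserts and 34.2% elsewhere outside repeats, 8.56% and 18.6% in the upper 50%, and 17.2% and 32.2% without Chromosome X. The repeat share, of peaks with more than 50% masked bases, was 7.23%, against 6.15% of other peaks. In deserts it was 2.81% at 80% of the bases, 3.25% in the upper 50% and 5.46% without the desert with the most peaks. At 100 kb and in the upper 50%, genes beside a desert peak numbered 9 and 20 of the developmental factors, 6 and 7 of the blood factors, 4 and 7 of the receptors and ligands, 18 and 11 of the adhesion genes, and 252 and 519 of all protein-coding genes. Of the alternatives, 20 left their value within 1.5 times (counts) or its 95% interval (others), and 29 did not. Shifts in the counts of peaks and genes with another distance, annotation or fewer peaks follow from how those settings are built, as does the share with a mismatch. For the other shares and densities the cause was not tested. The median fold enrichment and the convergent share stayed within their intervals. No paired analysis was possible because a single library was analysed and no groups were compared. There was no replicate to leave out, and without read counts no depth limit can be given.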

Other observations

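Among the autosomes, desert density was highest on Chromosome 2, with 2.68 peaks per Mb (2.11 to 3.36), and lowest on Chromosome 14, with 0.718 (0.402 to 1.18). Outside deserts these chromosomes had 9.23 and 8.08 peaks per Mb. Occupancy of desert core sites was 24.7% on Chromosome 2 (37 of 150 sites) and 12.3% on Chromosome 14 (8 of 65), and on Chromosome X it was 4.35% (6 of 138).

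The core motif of a desert peak pointed toward the nearest TSS in 131 of 279 peaks with a single core site (47.0%, 41.2% to 52.8%). Desert core sites with a CpG lay in a peak in 18 of 132 cases (13.6%, 8.80% to 20.5%), and those without in 16.4% (14.7% to 18.3%). All 18 were outside masked repeats, where they made up 23.4% (15.3% to 34.0%) of 77 sites with a CpG, against 19% (16.9% to 21.2%) of sites without, so that the order turned and the intervals overlapped.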
